A study of Rattus norvegicus with 12 samples.

Results

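The 9 genes described here, Tpm1, Tpm2, Tpm3, Tpm4, Actn1, Actn4, Flna, Cald1 and Vcl, encode actin-binding proteins of the contractile and adhesive apparatus. Several of these proteins are made in muscle and nonmuscle splice forms. They were taken by name from the count table, in which 9 of 33294 genes carry these symbols, and all 9 passed the filter on low counts in every comparison. Expression was measured by poly(A) RNA-seq in PAC1, a rat smooth muscle cell line, as 3 libraries in each of 4 groups. D1 was PAC1-D, the more differentiated culture obtained by weekly passage at lower dilution, treated with control siRNA. P was PAC1-P, the more proliferative culture passaged more often and at higher dilution, also treated with control siRNA. RBPMS KD1 was PAC1-D treated with siRNA against Rbpms, a splicing regulator enriched in differentiated smooth muscle. MBNL KD was PAC1-D treated with siRNAs against the Muscleblind splicing regulators Mbnl1 and Mbnl2. The sample titles name only the former, whereas the treatment labels name both. All 4 groups were therefore transfected, and all come from 1 cell line, so that no group represents primary tissue. P and D1 differed in culture regime as well as in differentiation state, which cannot be told apart. The labels do not say that replicates came from separate cultures, although the study's methods call them biological replicates; if they were not separate, the p-values measure only technical spread.

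Tropomyosins are coiled-coil proteins that polymerise head to tail along actin filaments and set which motors and regulators can bind. Caldesmon lies on the same filaments and inhibits myosin ATPase, alpha-actinins crosslink antiparallel filaments at dense bodies, filamin A crosslinks them at wide angles and binds integrins, and vinculin couples them to talin at adhesions. Several of these genes, Tpm1, Actn1, Cald1 and Vcl among them, are textbook examples of alternative splicing in smooth muscle, where caldesmon and metavinculin isoforms mark the contractile state. The counts used here sum all reads of a gene. They therefore describe abundance only, and muscle and nonmuscle splice forms were not separated.

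The sequence just upstream of an annotated transcript start is shown for the 4 genes with a 250-base window that held an MCAT element (GGAATG on either strand), the binding motif of TEAD factors, and for Tpm3, the gene with the smallest difference between P and D1. The windows are from RefSeq on assembly GRCr8 and run 5′ to 3′ on the gene's strand. They are Tpm1 at chr8:76543416-76543665 (minus strand), Flna at chrX:157182344-157182593 (minus strand), Cald1 at chr4:64233006-64233255 (plus strand), Vcl at chr15:3404801-3405050 (minus strand) and Tpm3 at chr2:177814633-177814882 (plus strand). The windows of Flna, Cald1 and Tpm3 lie within the annotated gene, and those of Tpm1 and Vcl overlap its 5′ end. In each, the annotated gene begins upstream of the transcript start used. Capitals mark the MCAT element. RefSeq gave 3 windows for Tpm3, none with the element, of which the farthest upstream is shown, and 2 for Cald1, of which only the one shown has it; the other genes shown have 1 window.
Tpm1: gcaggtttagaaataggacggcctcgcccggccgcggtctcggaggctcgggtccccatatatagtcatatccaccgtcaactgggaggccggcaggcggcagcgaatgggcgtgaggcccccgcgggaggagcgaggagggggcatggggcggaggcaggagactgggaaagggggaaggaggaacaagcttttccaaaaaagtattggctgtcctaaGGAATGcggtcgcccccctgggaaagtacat
Flna: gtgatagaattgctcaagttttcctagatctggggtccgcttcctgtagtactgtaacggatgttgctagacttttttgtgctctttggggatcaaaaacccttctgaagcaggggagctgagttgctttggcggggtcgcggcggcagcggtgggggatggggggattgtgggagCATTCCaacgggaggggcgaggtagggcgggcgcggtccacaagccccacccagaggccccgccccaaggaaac
Cald1: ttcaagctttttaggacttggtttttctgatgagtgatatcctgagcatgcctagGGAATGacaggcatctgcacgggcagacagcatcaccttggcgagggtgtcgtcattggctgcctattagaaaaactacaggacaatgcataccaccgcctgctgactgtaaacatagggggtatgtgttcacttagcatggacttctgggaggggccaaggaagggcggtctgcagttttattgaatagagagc
Vcl: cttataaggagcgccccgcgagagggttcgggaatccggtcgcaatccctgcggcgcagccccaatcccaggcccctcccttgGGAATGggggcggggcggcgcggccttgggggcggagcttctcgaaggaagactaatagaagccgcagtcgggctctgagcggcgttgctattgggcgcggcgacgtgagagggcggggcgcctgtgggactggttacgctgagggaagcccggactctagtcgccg
Tpm3: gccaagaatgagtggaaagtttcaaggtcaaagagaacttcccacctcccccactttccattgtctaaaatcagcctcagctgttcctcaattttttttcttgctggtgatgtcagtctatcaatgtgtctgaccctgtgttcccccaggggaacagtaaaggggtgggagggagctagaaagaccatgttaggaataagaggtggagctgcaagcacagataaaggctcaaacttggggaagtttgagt

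Windows were found for 8 of the 9 genes, 11 windows in all, and Actn4 had none. Tpm2, Tpm4 and Actn1 had windows without the element. These genes changed by -1.77, -1.35 and -1.88 on the log2 scale in P against D1. Any relation of the element to these changes was not tested. The element began, on the gene's strand, at position -31 from the transcript start in Tpm1, -74 in Flna, -195 in Cald1 and -167 in Vcl. It occurred in 4 of the 11 windows, and in 12.1% of all 33469 windows of this length. A CArG box, the motif of serum response factor, occurred in 0 of the 11 and in 1.5% of all windows. Only exact matches to CCWWWWWWGG (W is A or T) were counted. Boxes that depart from this pattern or reach beyond the window were therefore missed. A match describes the letters of this window only.

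The libraries held 80842635 to 90771289 counts each, and 19659 to 20904 genes had at least 1 count. Smooth muscle identity was checked with 6 markers (Myh11, Acta2, Cnn1, Tagln, Myocd and Des), all of them detected in every group. Their summed level, in CPM (counts divided by library size, with TMM scaling), was 8526 to 8950 in D1 but 133 to 141 in P, with 4298 to 4462 in RBPMS KD1 and 6887 to 6978 in MBNL KD. Acta2 and Tagln carried most of this sum, and the markers did not all move alike. Against D1, 5 of the 6 were lower and 1, Des, was higher in P and also in RBPMS KD1, whereas 3 were lower and 3 (Myh11, Cnn1 and Des) higher in MBNL KD, where their median log2 fold change was -0.06. Des averaged 2.54 CPM in D1, 13.3 in P, 3.96 in RBPMS KD1 and 6.70 in MBNL KD, and Myh11 stood at 144% of its D1 mean in MBNL KD. Endothelial markers summed to 0.747 to 0.817 CPM in D1, 5.42 to 6.75 CPM in P, 1.83 to 1.84 CPM in RBPMS KD1 and 0.934 to 1.41 CPM in MBNL KD. Cdh5 averaged 1.37 CPM in P and was at 0 in the other groups. Of the endothelial markers tested, 3 of 3 were higher past both thresholds in P and 2 of 2 (Tek and Vwf) in RBPMS KD1, while in MBNL KD neither Tek nor Vwf was called (edgeR adjusted p = 0.16 and 0.098). Leukocyte markers reached at most 0.341 CPM in any library, and the only 1 tested, Cd3e, was higher in P past both thresholds, from 0.0538 to 0.192 CPM on average (log2 fold change 1.80, edgeR adjusted p = 0.0023). The pan-leukocyte marker Ptprc averaged 0.0249 CPM in P. Striated muscle markers summed to 3.87 to 4.08 CPM in D1, 2.64 to 3.07 CPM in P, 0.936 to 1.39 CPM in RBPMS KD1 and 8.71 to 9.53 CPM in MBNL KD. Ckm and Tnnt2 were lower past both thresholds in RBPMS KD1, whereas in MBNL KD Ckm was lower and Tnnt2 higher past both.

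The targeted genes followed the siRNA labels. Rbpms measured 153, 156 and 141 CPM in D1 and 37.3, 37.1 and 38.4 CPM in RBPMS KD1, and it was lower still in P, at 9.50, 9.56 and 9.37 CPM. Mbnl1 fell from 347 ± 5.18 CPM in D1 to 82.3 ± 0.965 CPM in MBNL KD (mean ± SD, n = 3), and Mbnl2 measured 180, 179 and 183 CPM in D1 and 52.3, 54.1 and 53.4 CPM in MBNL KD. MBNL KD also had less Rbpms than D1, at 125 ± 2.62 CPM (log2 fold change -0.26, edgeR adjusted p = 2.6e-09).

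Together the 9 genes made up 1.62% ± 0.022 of all counts in D1 (SD, n = 3). In P the share was 0.521% ± 0.0079, and RBPMS KD1 (1.10% ± 0.019) and MBNL KD (1.38% ± 0.011) lay between them. The means fell in the order D1, MBNL KD, RBPMS KD1, P for Tpm1, Tpm2, Tpm4, Actn1, Flna, Cald1 and Vcl. Actn4 and Tpm3 departed from it. In RNA from a whole culture, fewer cells of a type and less RNA per cell cannot be told apart.

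Nearly the whole group was strongly lower in proliferative than in differentiated cells. Against D1, all 9 genes were lower in P at an adjusted p under 0.05 by edgeR's quasi-likelihood test, and 8 of them, all but Tpm3, also changed by more than 1 on the log2 scale. After quantile normalisation, or with the study's normalised values in limma, 8 were lower and Tpm3 was not called. Over the 16814 genes tested, 37.6% were lower and 40.4% higher by the former rule, and 11.2% lower and 16.4% higher by both rules. The median log2 fold change was -1.82 for the 9 genes and 0.02 for all genes. The 3 P libraries lay below all 3 D1 libraries for each of the 9 genes, a pattern that 38.1% of genes showed in this direction and 41% in the other.

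Knockdown of RBPMS lowered all 9 genes, and 8 of them by less than the difference between P and D1, as the direct test of P against RBPMS KD1 given further on shows. All 9 passed the adjusted p threshold in RBPMS KD1 against D1 (8 after quantile normalisation or with the study's normalised values in limma, where Actn4 was not called), none fell by more than 1 on the log2 scale, and their median log2 fold change was -0.57 against 0.004 over all 15904 genes. In that comparison 29.5% of genes were lower and 29.5% higher at the adjusted p threshold. Both thresholds together were passed by 1.62% of genes for lower and 3.06% for higher levels, and the libraries of the groups did not overlap for 31.9% (lower) and 31.5% (higher).

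Depletion of MBNL1 and MBNL2 gave small changes. Here 8 genes were lower (7 with the study's normalised values in limma, where Actn1 was not called) and 1, Tpm3, was higher than in D1, with 0 past both thresholds and a median log2 fold change of -0.14, against 0.01 over 16053 genes. The corresponding shares of all genes were 33.7% lower and 33.8% higher at the adjusted p threshold, and 4.14% and 6.1% past both thresholds. The groups did not overlap for 35.6% (lower) and 34.8% (higher). With replicates this close, differences of a few percent passed the test, so the size of each change is given beside its call. P, RBPMS KD1 and MBNL KD were all compared with the same 3 D1 libraries, and their differences from D1 are therefore not independent of each other.

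**Figure D1:**
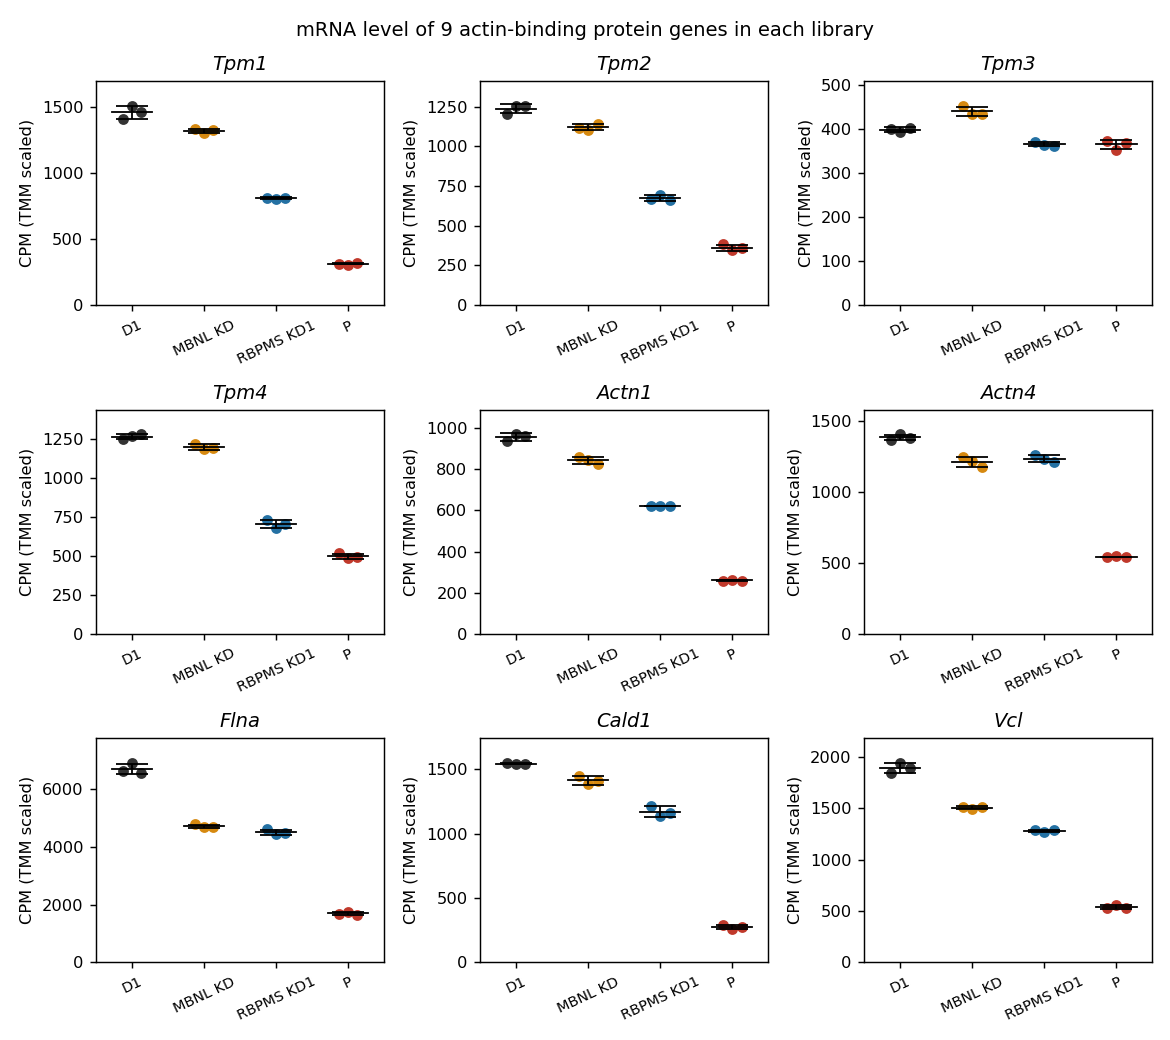
Level of each of the 9 genes in CPM (linear axis from 0, its own scale for each gene) in the 4 groups. Points are the 3 libraries of a group and the line is their mean ± SD. P is far below D1 for every gene but Tpm3, where D1 ranges from 393 to 403 CPM and P from 353 to 374 CPM.

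Tpm1, which encodes the alpha-tropomyosin of muscle thin filaments and several nonmuscle forms, measured 1404, 1506 and 1462 CPM in D1. The P libraries held 315, 307 and 316 CPM, and those of RBPMS KD1 held 813, 803 and 812 CPM. The MBNL KD libraries stood at 1329, 1299 and 1325 CPM. The groups did not overlap, and RBPMS KD1 lay between MBNL KD and P. Relative to D1, Tpm1 changed by -2.22 ± 0.026 (log2 fold change ± SE, edgeR adjusted p = 1.6e-36) in P, which is 4.66-fold lower. The change was -0.85 ± 0.026 (adjusted p = 6.5e-21) in RBPMS KD1 and -0.14 ± 0.024 (adjusted p = 6.4e-06) in MBNL KD.

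Tpm2, encoding beta-tropomyosin, measured 1203, 1254 and 1251 CPM in D1 and 383, 347 and 357 CPM in P. RBPMS KD1 gave 667, 696 and 662 CPM, and MBNL KD gave 1115, 1104 and 1140 CPM. RBPMS KD1 thus kept 54.6% of the D1 mean, and P 29.3%. The log2 fold changes were -1.77 ± 0.029 in P, -0.87 ± 0.026 in RBPMS KD1 and -0.14 ± 0.023 in MBNL KD, with edgeR adjusted p = 1.2e-32, 3.4e-21 and 5.7e-06.

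Tpm4, which encodes cytoskeletal tropomyosin of stress fibres, had 1250, 1270 and 1282 CPM in D1 and 517, 486 and 491 CPM in P. It had 733, 679 and 705 CPM in RBPMS KD1 and 1221, 1186 and 1197 CPM in MBNL KD. Relative to D1 it changed by -1.35 ± 0.025 in P and by -0.84 ± 0.027 in RBPMS KD1. In MBNL KD the difference was -0.07 ± 0.022 (edgeR adjusted p = 0.0053). It was the smallest difference called in this edgeR fit among the 9 genes. The rank depended on the processing, as Tpm4 moved as far as -0.11 and Actn1 to -0.05 under alternatives. Tpm1, Tpm2 and Tpm4 thus stood at 55.5%, 54.6% and 55.7% of their D1 means after RBPMS depletion, whereas in P they had separated to 21.5%, 29.3% and 39.3%.

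Tpm3, whose products are mainly cytoskeletal and slow skeletal muscle tropomyosins, was the exception. It measured 401, 393 and 403 CPM in D1, 374, 353 and 369 CPM in P, 370, 364 and 361 CPM in RBPMS KD1 and 453, 433 and 435 CPM in MBNL KD. P and RBPMS KD1 were at the same 91.6% of the D1 mean, and MBNL KD lay above all other libraries at 110%. The log2 fold change was -0.13 ± 0.025 in P (edgeR adjusted p = 2.3e-05), -0.13 ± 0.024 in RBPMS KD1 (5.8e-05) and 0.15 ± 0.026 in MBNL KD (7.4e-06). In MBNL KD it was 0.25 after quantile normalisation, and in RBPMS KD1 it was -0.08. The direction in P depended on scaling: after quantile normalisation of the counts the difference was 0.05 and no longer called (adjusted p = 0.057). Compared directly, the log2 difference of P from RBPMS KD1 in Tpm3 was -0.03 and not called (95% interval -0.08 to 0.03, edgeR adjusted p = 0.39), but it was 0.14 and called after quantile normalisation (adjusted p = 0.000140) and with the study's normalised values in limma (0.14, adjusted p = 0.0012).

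**Figure D2:**
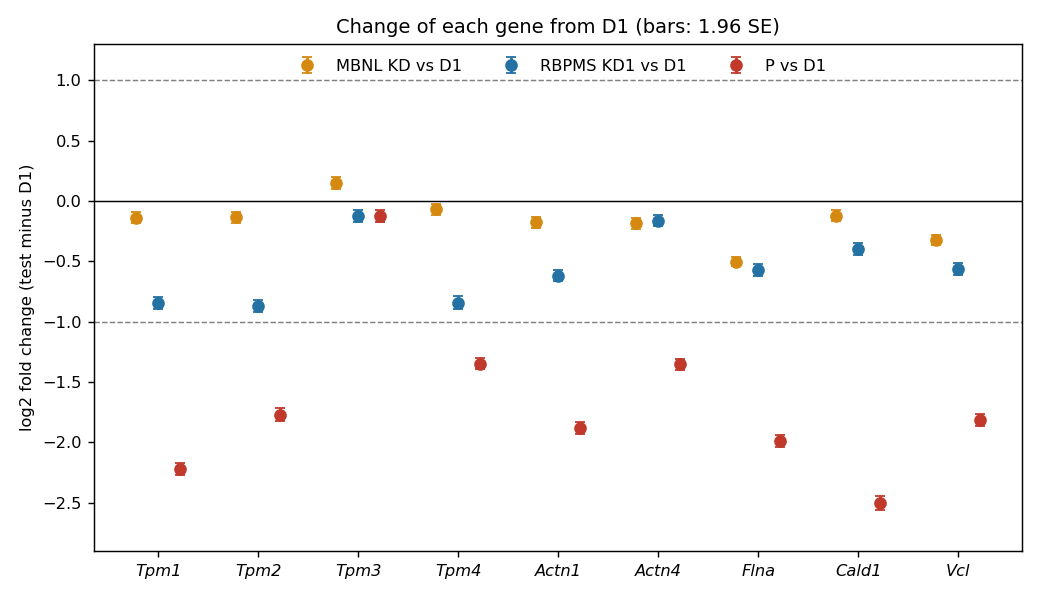
Log2 fold change against D1 of the 9 genes in P, RBPMS KD1 and MBNL KD, with 95% intervals from the edgeR fit. Dashed lines mark a change of 1 in either direction; in P 8 genes lie beyond it, and in each knockdown 0 do.

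The balance among the tropomyosin genes was examined as ratios of counts within a library, which do not depend on library scaling. Because transcript lengths were not used, a ratio carries no meaning for which gene has more molecules, and only its change between groups is read. The Tpm3 to Tpm1 ratio was 0.285, 0.261 and 0.276 in D1 and 1.19, 1.15 and 1.17 in P, on average 4.26 times the D1 ratio. It was 0.455, 0.454 and 0.445 in RBPMS KD1 and 0.341, 0.334 and 0.328 in MBNL KD. All 4 groups were separate from each other. Each such separation of 3 against 3 libraries has an exact two-sided permutation p = 0.1, the smallest this design allows, and adjusted p = 0.125 over the 25 ratio tests made. No ratio could therefore pass a threshold of 0.05.

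Tpm3 made up 9.15% ± 0.27 of the reads of the 4 tropomyosin genes in D1, 10.8% ± 0.19 in MBNL KD, 23.7% ± 0.30 in P and 14.3% ± 0.060 in RBPMS KD1 (SD, n = 3). Together the 4 genes made up 0.418% of all counts in D1, 0.408% in MBNL KD, 0.166% in P and 0.248% in RBPMS KD1.

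The Tpm4 to Tpm1 ratio was 0.870 ± 0.024 in D1 and 0.872 ± 0.028 in RBPMS KD1, a log2 difference of 0.002 ± 0.035 (SE, exact permutation p = 0.9). In P it was 1.59 ± 0.045. In MBNL KD it was 0.919, 0.913 and 0.903, above all D1 and RBPMS KD1 libraries (exact permutation p = 0.1 for each). The Tpm2 to Tpm1 ratio was 0.848 ± 0.014 in D1, 0.834 ± 0.028 in RBPMS KD1 (exact permutation p = 0.4) and 1.16 ± 0.051 in P. In MBNL KD it was 0.850 ± 0.011, overlapping D1. Each of these ratios in P lay above all libraries of the other 3 groups.

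**Figure D3:**
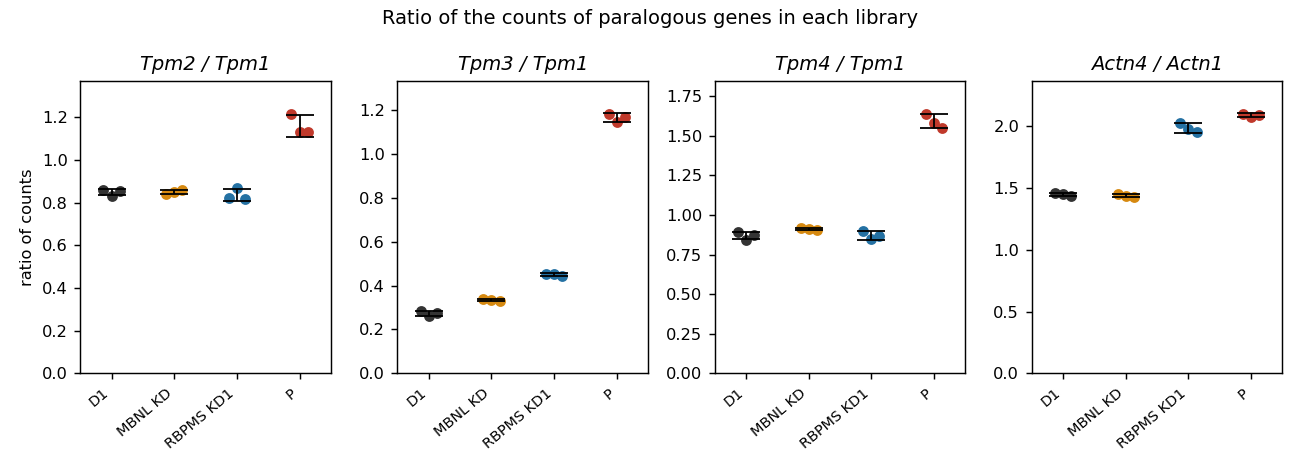
Ratio of the counts of paralogous genes in each library of the 4 groups (linear axes from 0, points are libraries, lines the mean ± SD of 3). The Tpm3 to Tpm1 ratio averages 0.274 in D1 and 1.17 in P, and the Actn4 to Actn1 ratio separates P and RBPMS KD1 (2.09 and 1.99) from D1 and MBNL KD (1.45 and 1.44).

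Of the alpha-actinin genes, Actn1 stood at 65.0% of its D1 mean in RBPMS KD1 and Actn4 at 89.1%. Actn1, whose protein is found at adhesions and has a smooth muscle splice form, measured 938, 970 and 965 CPM in D1 and 623, 624 and 622 CPM in RBPMS KD1. It was at 258, 263 and 259 CPM in P and at 859, 847 and 826 CPM in MBNL KD. The change from D1 was -1.88 ± 0.024 in P, -0.62 ± 0.024 in RBPMS KD1 and -0.18 ± 0.024 in MBNL KD, with edgeR adjusted p = 1.8e-35, 1.1e-18 and 1.2e-07. The MBNL KD difference shrank to -0.05 after quantile normalisation (adjusted p = 0.033) and was no longer called with the study's normalised values in limma (-0.05, adjusted p = 0.093).

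Actn4, encoding the more widely expressed nonmuscle alpha-actinin, had 1368, 1408 and 1384 CPM in D1 and 543, 546 and 541 CPM in P. The knockdowns gave nearly equal levels, 1263, 1235 and 1212 CPM in RBPMS KD1 and 1249, 1218 and 1178 CPM in MBNL KD, each below all D1 libraries. In P the log2 fold change was -1.35 ± 0.023 (edgeR adjusted p = 6.3e-32). It was -0.16 ± 0.024 in RBPMS KD1 (adjusted p = 1.4e-06) and -0.18 ± 0.023 in MBNL KD (adjusted p = 3.1e-08). The RBPMS KD1 difference shrank to -0.05 and was no longer called after quantile normalisation (adjusted p = 0.0503) or with the study's normalised values in limma (adjusted p = 0.19).

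As a ratio within libraries, Actn4 to Actn1 was 1.46, 1.45 and 1.44 in D1 and 1.45, 1.44 and 1.43 in MBNL KD (exact permutation p = 0.5). In RBPMS KD1 it was 2.03, 1.98 and 1.95, and in P 2.10, 2.08 and 2.09. RBPMS KD1 was separate from D1, at 1.37 times its ratio, and P lay slightly above RBPMS KD1, at 1.05 times (exact permutation p = 0.1 for each). With the study's normalised values the log2 ratio of MBNL KD to D1 was -0.11 in place of -0.009, and that of P to RBPMS KD1 0.13 in place of 0.07. The striated muscle members of the family were barely detected, with group means of at most 0.106 CPM for Actn2 and 0.333 CPM for Actn3.

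Flna, encoding filamin A, measured 6647, 6923 and 6584 CPM in D1 and 1671, 1753 and 1649 CPM in P. Like Actn4, it was at similar levels in the 2 knockdowns, with 4610, 4440 and 4497 CPM in RBPMS KD1 and 4785, 4687 and 4683 CPM in MBNL KD. The log2 fold changes were -1.99 ± 0.026 in P, -0.57 ± 0.025 in RBPMS KD1 and -0.50 ± 0.018 in MBNL KD (edgeR adjusted p = 4.3e-35, 2.6e-17 and 8.5e-21). Between the knockdowns the difference was 0.06 ± 0.018 (adjusted p = 0.0022). The size of this difference depended on the processing. It was 0.04 and not called without RBPMS KD1 replicate 2 (adjusted p = 0.10) or without MBNL KD replicate 1 (adjusted p = 0.085), and it reached 0.23 with the study's normalised values in limma.

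The muscle filamin gene Flnc fell with Flna in P (log2 fold change -1.82, edgeR adjusted p = 4.5e-35) and RBPMS KD1 (-0.49, 6.6e-16). In MBNL KD it was higher than in D1, by 0.24 (1.6e-10). Reads from the conserved parts of the tropomyosin, alpha-actinin and filamin genes can match more than 1 paralogue, and how such reads were counted is not given in the sources used here.

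Cald1, encoding caldesmon, showed the largest difference of the 9 genes between P and D1 and a modest one after RBPMS depletion. The D1 libraries held 1551, 1542 and 1543 CPM and the P libraries 288, 257 and 275 CPM. RBPMS KD1 had 1217, 1135 and 1161 CPM and MBNL KD 1452, 1383 and 1407 CPM. P thus retained 17.7% of the D1 level, RBPMS KD1 75.8% and MBNL KD 91.5%. The log2 fold changes were -2.50 ± 0.029, -0.40 ± 0.026 and -0.12 ± 0.022, with edgeR adjusted p = 1.4e-36, 1.1e-13 and 1.2e-05. Compared directly, P was below RBPMS KD1 by 4.36-fold.

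Vcl, encoding vinculin, measured 1842, 1944 and 1893 CPM in D1 and 529, 556 and 528 CPM in P. It stood at 1286, 1268 and 1291 CPM in RBPMS KD1 and 1512, 1495 and 1518 CPM in MBNL KD. The 4 groups were separate, and the log2 fold changes from D1 were -1.82 ± 0.026, -0.56 ± 0.025 and -0.32 ± 0.022 (edgeR adjusted p = 4.1e-34, 2.3e-17 and 6.1e-14). After Flna, this was the strongest decrease among the 9 genes in MBNL KD.

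To ask whether RBPMS depletion brought the genes to the level of proliferative cells, P was tested against RBPMS KD1. In P 8 of the 9 genes were lower and Tpm3 was not called; 6 passed both thresholds, all but Tpm2, Tpm3 and Tpm4. The median difference was -1.28 on the log2 scale, against 0.005 over 16899 genes. Over all genes, 39% were lower and 40.5% higher at the adjusted p threshold, and 13% and 16.1% past both. Among the called genes the difference was least for Tpm4, at -0.53 ± 0.029, and Tpm2, at -0.92 ± 0.030 (edgeR adjusted p = 5.8e-18 and 2.2e-24). With the study's normalised values in limma the difference was -0.29 for Tpm4, and that of Flna went from -1.44 to -0.93. It was greatest for Cald1, at -2.13 ± 0.033 (adjusted p = 5.9e-34). With quantile normalisation Tpm3 was instead called higher in P, as given above. Across the alternatives 4 to 6 genes passed both thresholds.

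The knockdowns were also compared with each other. In MBNL KD 8 genes were higher than in RBPMS KD1, 0 passed both thresholds, and the median difference was 0.27 against 0.01 over 16111 genes. In all, 34.5% of genes were lower and 35.1% higher at the adjusted p threshold, and 6.03% and 5.88% past both. Tpm1, Tpm2 and Tpm4 differed most, by 0.70 ± 0.023, 0.73 ± 0.026 and 0.77 ± 0.026 (edgeR adjusted p = 9.1e-22, 4.7e-21 and 2.2e-21). Actn4 was not called, with a difference of -0.02 (95% interval -0.07 to 0.02, adjusted p = 0.37). After quantile normalisation it was lower in MBNL KD, by -0.10 (adjusted p = 0.000316).

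Other genes of the same machinery were followed with a list of 20 crosslinker and adhesion genes and a list of 22 thin filament regulators. Of 19 crosslinker and adhesion genes tested in P against D1, 12 were lower and 6 higher, where 37.6% and 40.4% of all genes were. Large decreases were found in Fblim1, which encodes the filamin-binding protein migfilin (-6.26 ± 0.047 on the log2 scale), and Svil, encoding supervillin (-2.13 ± 0.031). The fimbrin-type bundling protein genes Pls1 (4.14 ± 0.15) and Lcp1 (2.43 ± 0.41) were higher in P, both at low levels of 5.93 and 0.546 CPM. The edgeR adjusted p was at most 3.1e-06 for each of these genes. The list's median log2 fold change was -0.72, against 0.02 over all genes.

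In RBPMS KD1 10 of 18 tested crosslinker and adhesion genes were lower, 2 were higher and 0 passed both thresholds, with a median of -0.15 against 0.004 over all genes, of which 29.5% were lower and 29.5% higher. In MBNL KD 11 of 19 were lower and 3 higher, with a median of -0.22 against 0.01 over all genes, of which 33.7% were lower and 33.8% higher. Those past both thresholds were Tln1 and Sorbs3, encoding talin-1 and vinexin, each a direct binding partner of vinculin. Tln1 measured 1085, 1117 and 1097 CPM in D1, 1002, 975 and 961 CPM in RBPMS KD1 and 554, 537 and 533 CPM in MBNL KD. In P it had 549, 570 and 572 CPM. Its change in MBNL KD was -1.02 ± 0.024 (edgeR adjusted p = 4.4e-25), that in RBPMS KD1 -0.17 ± 0.025, and the knockdowns differed by -0.85 ± 0.025 (adjusted p = 6.6e-23).

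Sorbs3 measured 176, 177 and 174 CPM in D1 and 69.9, 68.7 and 68.8 CPM in MBNL KD, a change of -1.34 ± 0.023 (edgeR adjusted p = 4.5e-28). In RBPMS KD1 it had 164, 177 and 166 CPM, overlapping D1 (adjusted p = 0.14). In P it had 160, 161 and 157 CPM (log2 fold change -0.14). Among the 9 genes the largest change in MBNL KD was -0.50, in Flna.

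Among thin filament regulators, 14 of 20 tested were lower and 4 higher in P (37.6% and 40.4% of all genes), with a median of -0.55 against 0.02. The largest changes were in Cnn1, encoding calponin (-6.11 ± 0.11), Tagln, encoding SM22 (-5.71 ± 0.029), Nexn, encoding nexilin (-4.80 ± 0.042), and Lmod1, the smooth muscle leiomodin (-4.53 ± 0.035). Each of these exceeded the change in every one of the 9 genes (edgeR adjusted p at most 5.8e-31). Lmod3 rose by 2.83 ± 0.34, from 0.123 to 0.884 CPM (adjusted p = 3.9e-09).

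RBPMS depletion lowered 15 of 20 tested thin filament regulators and raised 3 (29.5% of all genes in each direction), with a median of -0.31 against 0.004. Cnn1 (-1.47 ± 0.064), Nexn (-1.45 ± 0.035) and Lmod1 (-1.22 ± 0.028) passed both thresholds (edgeR adjusted p = 1.3e-17, 2.4e-23 and 1.0e-23), which none of the 9 genes did. The list holds Cnn1 and Tagln, which are also among the smooth muscle markers given above. The part of smooth muscle, endothelial, leukocyte or striated muscle marker levels in the changes of the 9 genes was not tested.

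In MBNL KD 10 of 21 thin filament regulators were lower and 10 higher, with a median of -0.08 against 0.01. Over all genes 33.7% were lower and 33.8% higher. The 3 past both thresholds were all higher and expressed at low levels. Lmod3 went from 0.123 to 1.56 CPM (3.66 ± 0.29, edgeR adjusted p = 3.3e-12) and Tmod2, encoding tropomodulin-2, a pointed-end capping protein, from 0.693 to 1.99 CPM (1.53 ± 0.20, adjusted p = 7.0e-08). Lmod2 had 0, 0 and 2 counts in D1 and 28, 27 and 16 counts in MBNL KD, and no fold is given. In contrast to RBPMS KD1, Nexn (0.32 ± 0.027) and Cnn1 (0.12 ± 0.047) were slightly higher than in D1.

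**Figure D4:**
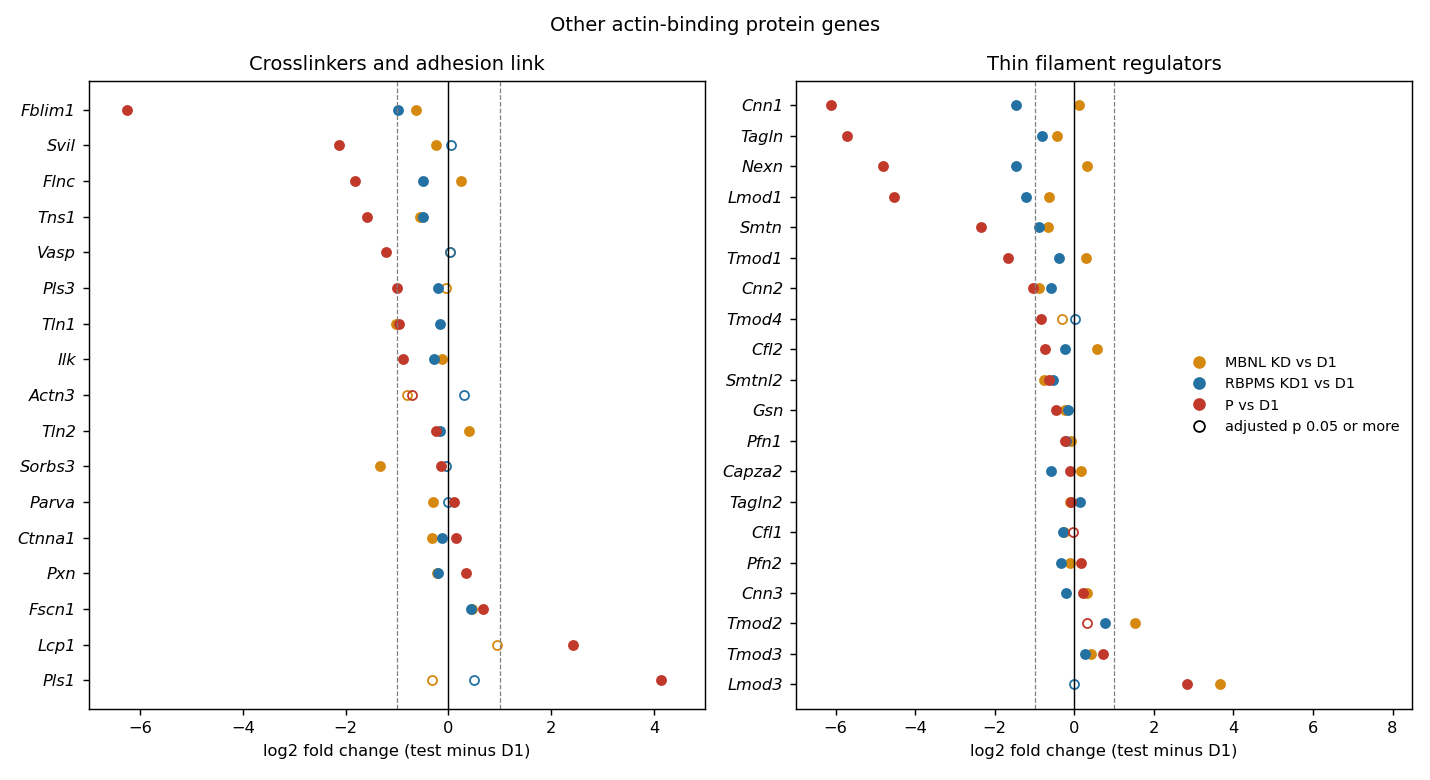
Log2 fold change against D1 for the other crosslinker and adhesion genes (left) and thin filament regulators (right), ordered by the change in P. Filled points have an edgeR adjusted p under 0.05, dashed lines mark a change of 1, and genes with a D1 mean of 3 counts or fewer or not tested are left out, as are those not reported here; Tln1 and Sorbs3 lie beyond -1 in MBNL KD, and Cnn1, Nexn and Lmod1 in RBPMS KD1.

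The genes whose pattern over the 12 libraries was nearest to each of the 9 were sought by the root mean square difference of log2 CPM, taken relative to the D1 mean, among 9536 genes with a mean of at least 10 CPM. These distances are descriptions, and the libraries share groups. For Tpm3 the nearest were Gtf2f1 (0.025) and Morf4l2 (0.036). Actn1 lay nearest to Dtna (0.048) and Rasal2 (0.081), Actn4 to Fermt2, the kindlin-2 gene (0.049), and Myl6, a myosin light chain gene (0.073), and Vcl to Nav2 (0.054) and Dtna (0.059).

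Cald1 lay nearest to Alk (0.058) and Dmpk (0.070), Tpm2 to Akap1 (0.064) and Rasal2 (0.11), and Tpm4 to Rsu1 (0.084) and Fads1 (0.087). The distances were larger for Flna, to Pdlim7, a LIM-domain gene of stress fibres (0.11), and Nav2 (0.11), and for Tpm1, to Crim1 (0.13) and Akap12 (0.14). Within the 9 genes Actn1 and Vcl were the closest pair, at 0.087, and Tpm3 and Cald1 the most distant, at 1.20.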

How the data were processed

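Poly(A) RNA-seq libraries were made with a directional kit from rat PAC1 cells. Per the study's methods and processing notes, the authors subsampled reads, aligned them with STAR (2.7.11b) to mRatBN7.2 and counted RefSeq genes with featureCounts. They deposited raw counts per gene and values filtered for noise and quantile normalised (a signal scale). Whether strand and mates were counted separately is not given in the sources used here. From the deposited counts, edgeR 4.0.16 (R 4.3.3) was run on the 6 libraries of each comparison with filterByExpr, TMM factors, the quasi-likelihood test and Benjamini-Hochberg adjustment over all genes tested; scripts were tested on simulated data. Thresholds were an adjusted p under 0.05 and, separately, an absolute log2 fold change above 1. SE was taken from the fold change and F statistic. Printed CPM used TMM factors over 12 libraries. Within-library ratios were tested by exact two-sided permutation.

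The libraries held 80842635 to 90771289 counts, so counting error is small at the members' levels. Alternatives used DESeq2 1.42.0, limma 3.58.1 on log2 of the deposited normalised signal, and other filters and scalings. They also used a replicate block, 1 fit of all libraries, and the fit without each library. Distances between genes used log2 of CPM plus 0.5. Genes named outside the 9 were the siRNA targets, list genes past both thresholds in a knockdown, the 5 largest changes of each list in P, and the 2 genes nearest to each member; paralogues Flnc, Actn2 and Actn3 and the markers were named as list members. Some listed genes, and the ratios that use them, are not reported here. The members and lists were chosen with earlier results of these data known.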

Additional observations from a re-analysis of the deposited data

How the results depend on the processing

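Of 45 log2 fold changes (9 genes in 5 comparisons), 39 kept their direction and their side of the adjusted p threshold under all 14 alternatives tried for each. The exceptions came mostly from quantile normalisation and from limma on the study's normalised values. For Tpm3 in P against D1 these gave 0.054 (adjusted p = 0.057) and 0.056 (0.10). For Tpm3 in P against RBPMS KD1 they gave 0.14 each, so that 1 of the 9 genes was called higher in place of 0. The same difference was 0.0012 with at least 10 counts required in every library, 0.0042 in 1 fit of 12 libraries and -0.038 to 0.0017 when 1 library was left out, above 0 without P replicate 2, none of them called. Actn4 was called lower in MBNL KD than in RBPMS KD1 under both (-0.097 and -0.11), again 1 gene in place of 0. Actn4 in RBPMS KD1 was not called under both (-0.05 each), nor was Actn1 in MBNL KD with the normalised values (-0.05, adjusted p = 0.093). The Tpm4 to Tpm1 ratio in RBPMS KD1 against D1 became -0.011 on the log2 scale with the normalised values. Flna between the knockdowns was not called without RBPMS KD1 replicate 2 (0.036) or MBNL KD replicate 1 (0.043), and was 0.23 with the normalised values against 0.06. Values that kept their call but moved by over 1.5 times under quantile normalisation or the normalised values were Tpm3 in RBPMS KD1 (to -0.083) and MBNL KD (to 0.25), Tpm4 in MBNL KD (to -0.11), and Tpm4 and Flna in P against RBPMS KD1 (to -0.29 and -0.93). The causes were not tested. Counts of genes past both thresholds were 8 in P against D1 under all alternatives and 4 to 6 in P against RBPMS KD1. Same-numbered libraries did not deviate together (correlations -0.02 to 0.04), so the numbers give no pairing, and a replicate block left 9, 9 and 8 genes lower than D1 in P, RBPMS KD1 and MBNL KD and changed no call among the 45.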

Other observations

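The deposited normalised values depend on a gene's rank alone, and the most abundant of the 9 genes shows this. Flna ranked 8 by count in all 3 D1 libraries and therefore has the same normalised value, 539726, in each, although its levels there ranged from 6584 to 6923 CPM. In P it ranked 26 to 30. Its log2 fold change in P against D1 was -1.99 on the counts and -1.50 under the alternative with the smallest change.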
